A study of Homo sapiens with 18 samples.

Results

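The retinal pigment epithelium (RPE) is the pigmented cell layer that supports the photoreceptors, and 10 genes that mark its identity and functions were followed here in ARPE-19 cells, an immortalized human RPE line. The genes were MITF, OTX2, BEST1, RLBP1, RPE65, MERTK, SERPINF1, TIMP3, KRT8 and KRT18, chosen by name from the 23411 gene symbols counted in each library, and all 10 symbols were present. They and the gene lists used below were chosen with earlier results of these data known. RNA-seq had been run on 18 samples, 3 in each of 6 groups. Control cells had received a lentiviral Cas9 vector without a guide RNA, and NRF2-edited cells, called NRF2 ΔC, had received Cas9 with a guide to exon 5 of NFE2L2, the gene of the oxidative stress regulator NRF2, so that both lines carry Cas9. The NRF2 ΔC line is 1 clone whose NRF2 lacks its C-terminal end, so an effect of the edit and a property of the clone cannot be told apart. Each line was left untreated (water), treated with 1 mM NACET, the cell-permeable ethyl ester of N-acetylcysteine, or treated with 0.2 mM H2O2. The sample labels give 2 h of treatment after 22 h in 1 % serum, whereas the design text gives 8 h after 40 h in 10 % serum, and this conflict is unresolved. Nothing in the labels says that replicates were separate cultures, so p-values measure the spread between these samples, which may be technical.

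Libraries held 16673306 to 25951154 reads counted on genes (median 21447434). NFE2L2 mRNA, which a stop codon in its last exon need not lower, had log2 fold changes between the lines of 0.02, 0.03 and 0.06 in untreated, NACET-treated and H2O2-treated cells, none of them called, so its level does not check the labels. Of 11 RPE markers 5 reached 1 CPM (the read count normalized for library size and composition) in every group, namely TYRP1, PMEL, LRAT, MITF and OTX2, and BEST1 did so in the H2O2 groups only. The 11 summed to 196 to 347 CPM per library, nearly all of it MITF and OTX2, and the other 9 to 9.56 to 21.6 CPM. Markers of other cells stayed low. The 7 photoreceptor markers summed to 4.92 to 8.18 CPM in control and 0.919 to 1.58 CPM in NRF2 ΔC libraries, and PDE6B, the only one to average 1 CPM, had 76 to 154 reads in control and 0 to 5 in NRF2 ΔC libraries. The 5 endothelial markers summed to 0.646 to 2.01 CPM and the 5 leukocyte markers to 0.0823 to 1.85 CPM. In bulk RNA, fewer expressing cells and less RNA per cell cannot be told apart.

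As background, RPE identity rests on the transcription factors MITF, which binds E-box sequences in pigment and other epithelial genes, and OTX2, a homeodomain factor that acts with it. Mature RPE recycles the visual chromophore with RPE65 and RLBP1, moves chloride through the channel BEST1, engulfs shed outer segments through the receptor MERTK, and secretes SERPINF1 (PEDF, an anti-angiogenic factor) and TIMP3 (an inhibitor of matrix metalloproteinases that is deposited in Bruch's membrane). KRT8 and KRT18 pair into the keratin filaments of simple epithelia. ARPE-19 cells are known to lose much of the mature program in ordinary culture.

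The upstream sequences of the 3 genes that passed the test most often are shown because their mRNA levels carry the results. They were read from GRCh37, the build of the deposited alignments (hg19), on the plus strand, and end at the first annotated exon for MITF (chr3:69788365-69788606) and TIMP3 (chr22:33197441-33197690). For BEST1 only 30 bases round the E-box are given (chr11:61717766-61717795), because the bases before its canonical start lie inside the annotated gene, which starts at 61717535. Whether an exon of another BEST1 transcript covers these 30 bases was not checked. Capitals mark the palindromic E-box CACGTG.

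MITF: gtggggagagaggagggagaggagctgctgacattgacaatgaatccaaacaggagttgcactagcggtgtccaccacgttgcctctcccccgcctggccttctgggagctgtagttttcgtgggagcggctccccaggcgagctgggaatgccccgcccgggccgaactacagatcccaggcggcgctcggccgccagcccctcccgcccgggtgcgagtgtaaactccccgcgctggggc

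TIMP3: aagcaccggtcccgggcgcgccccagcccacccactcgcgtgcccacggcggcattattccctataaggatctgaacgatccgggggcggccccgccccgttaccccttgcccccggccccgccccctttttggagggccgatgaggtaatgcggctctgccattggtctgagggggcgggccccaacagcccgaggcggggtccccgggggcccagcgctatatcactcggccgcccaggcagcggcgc

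BEST1: cggctcagcactCACGTGggcagtgccagc

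In the 250 bases before each gene's canonical start, searched on both strands, CACGTG was present in 1 of the 10 genes, BEST1, where it began 45 bases before the start, and in 7.88 % of 19855 promoters of protein-coding genes. CATGTG, the core of the M-box, was found in OTX2 and RLBP1, and in 7.09 % of promoters. TAATCC, a core bound by OTX factors, was found in RLBP1 and SERPINF1, and in 5.35 % of promoters. Neither TGACNNNGC, the core of the antioxidant response element, nor TGANTCA, the AP-1 site, was found in any of the 10, against 11.4 % and 4.7 % of promoters. No match overlapped another, and a match is only a description of the window.

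On GRCh37, in the GENCODE 44 annotation lifted to that build, MITF lies on the plus strand of chromosome 3 (69788607 to 70017487, 10 exons in its canonical transcript) and OTX2 on the minus strand of chromosome 14 (57266623 to 57283411, 5 exons). BEST1 lies on the plus strand of chromosome 11 (61717535 to 61732987, 11 exons), RLBP1 on the minus strand of chromosome 15 (89753100 to 89764845) and RPE65 on the minus strand of chromosome 1 (68894505 to 68915637). MERTK (chromosome 2, 112656184 to 112787138), SERPINF1 (chromosome 17, 1665323 to 1680859) and TIMP3 (chromosome 22, 33197691 to 33259028, 5 exons) are on the plus strand. On chromosome 12, KRT8 (53290971 to 53343738, minus strand) and KRT18 (53342655 to 53346690, plus strand) are neighbours.

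The 10 genes fell into 3 tiers of level. Per length of the canonical transcript (RPKM, mean over 18 libraries), KRT8 at 305 and KRT18 at 277 were highest, followed by TIMP3 at 63.3, OTX2 at 44.9 and MITF at 24.6. MERTK at 1.14, SERPINF1 at 0.766 and BEST1 at 0.486 RPKM were low, with 57 to 131, 14 to 39 and 4 to 83 reads per library. The visual cycle pair was at or near the limit of detection, with RLBP1 at 0.128 RPKM and RPE65 at 0.00425 RPKM. The limit that a count of 0 allows, 3 reads, is 0.116 to 0.18 CPM per library and covers counting error only.

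**Figure D1:**
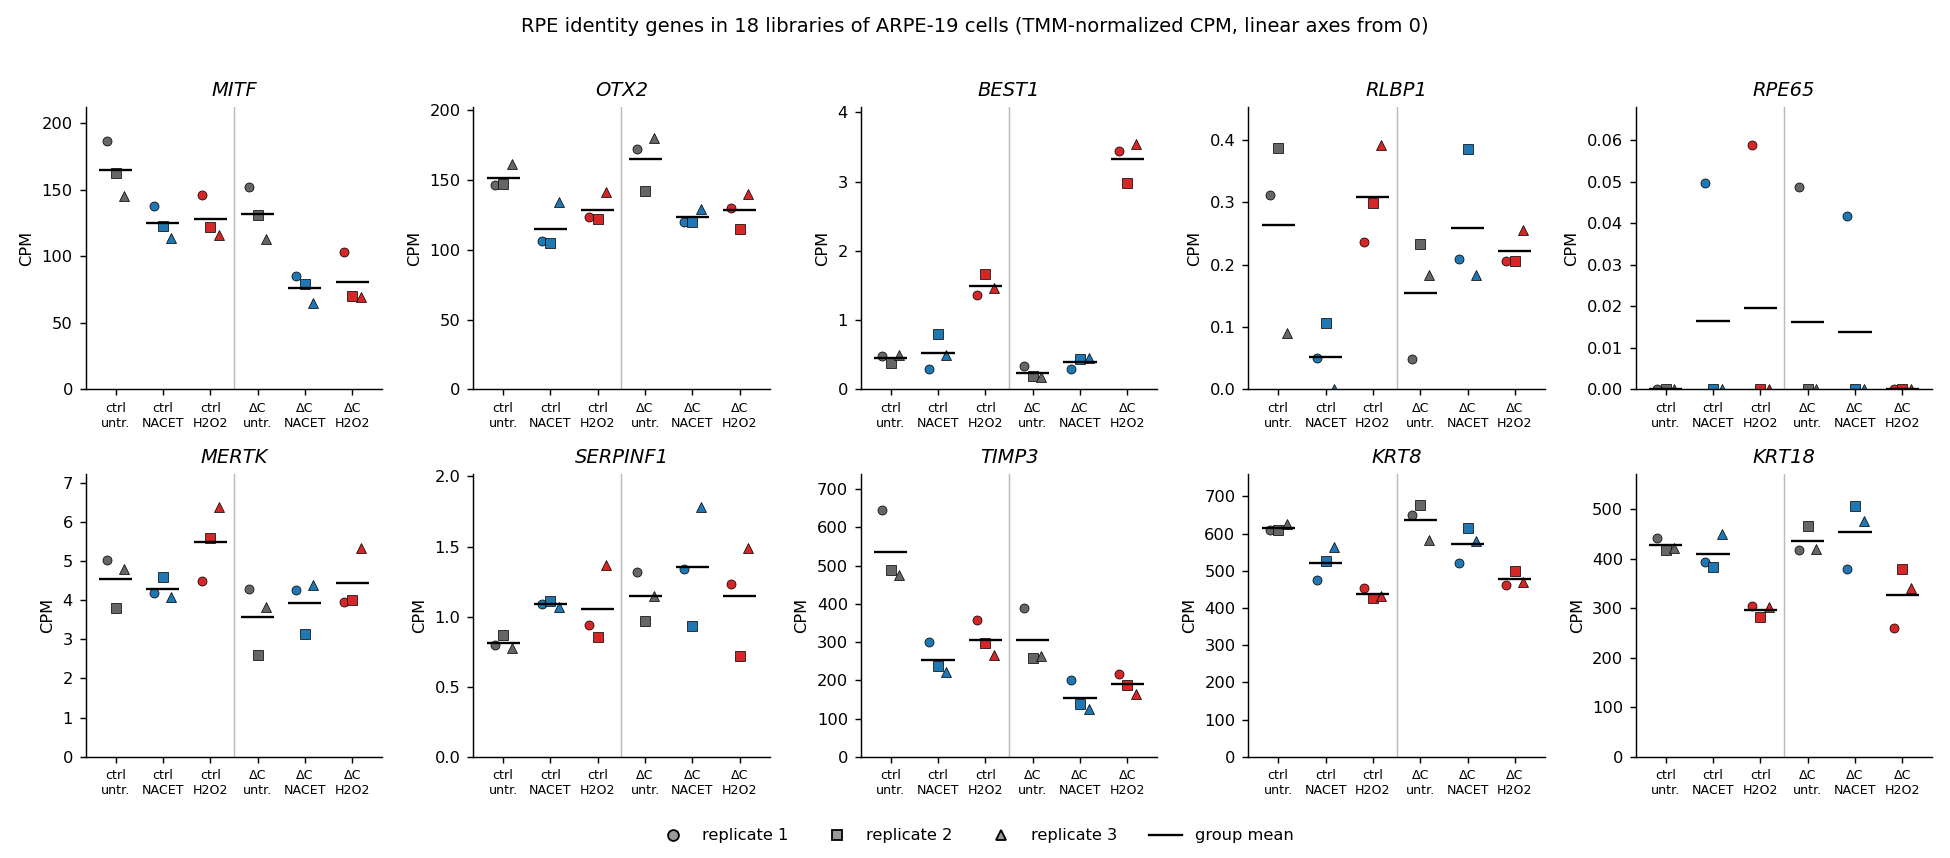
CPM (vertical, linear from 0, scale differing between panels) of the 10 genes in each of the 18 libraries. Symbols are replicates 1 to 3, horizontal bars are group means, ctrl is control and ΔC is NRF2 ΔC cells; TIMP3 and MITF sit lower in treated than in untreated cells of each line, and BEST1 is highest in both H2O2 groups.

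RPE65, the isomerase of the visual cycle, was in effect undetected in these cells. It had 4 reads in all, 1 in each of 4 libraries, all labelled replicate 1, in the control NACET, control H2O2, NRF2 ΔC untreated and NRF2 ΔC NACET groups. Every library was under the 3-read limit, so a level up to that limit cannot be told from 0. RLBP1, which binds the retinoids of the cycle, had 80 reads in 17 of the 18 libraries, from 0 to 8 per library. Its group means ran from 0.0519 CPM in control cells with NACET to 0.309 CPM in control cells with H2O2, and each neighbour in that order overlapped the next. Neither gene passed the filter on low counts in any comparison, so a change was not detectable at this depth. Of the 11 other visual cycle genes on a list written for this report, 6 reached 1 CPM.

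MITF averaged 118 CPM and was lower in every treated library than in the untreated library with the same replicate number. In control cells it was at 187, 163 and 145 CPM untreated, 138, 123 and 114 CPM with NACET and 146, 122 and 116 CPM with H2O2. NRF2 ΔC cells had 152, 131 and 113 CPM untreated, 85.3, 79.3 and 64.9 CPM with NACET and 103, 69.9 and 69.1 CPM with H2O2. Replicate 1 was the highest library of all 6 groups. The ranges of treated and untreated cells did not overlap, except for control cells with H2O2, whose 146 CPM exceeded the lowest untreated 145 CPM. A gene was called where edgeR's quasi-likelihood test gave a Benjamini-Hochberg adjusted p under 0.05 and its log2 fold change was 0.6 or more in size. MITF fell with H2O2 in NRF2 ΔC cells by this test (log2 fold change -0.74, SE 0.188, adjusted p = 0.0388). That call was lost in 5 of the 6 fits that left out 1 library, with log2 fold changes from -0.93 to -0.60 over the 6, and was kept only without H2O2 replicate 1. With NACET in NRF2 ΔC cells the log2 fold change was -0.81 (SE 0.152), just short of the limit at an adjusted p of 0.0504. Fitted with same-numbered libraries as blocks it passed (-0.81, adjusted p = 2.07e-07). In control cells the log2 fold changes were -0.39 with NACET (SE 0.123, adjusted p = 0.123) and -0.36 with H2O2 (SE 0.126, adjusted p = 0.0921).

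OTX2 averaged 135 CPM, and its values moved less. Control libraries had 146, 147 and 161 CPM untreated, 106, 105 and 134 CPM with NACET and 123, 122 and 141 CPM with H2O2. NRF2 ΔC libraries had 172, 142 and 180 CPM untreated, 120, 120 and 129 CPM with NACET and 130, 115 and 140 CPM with H2O2. Every treated library was below its untreated partner, by 0.20 to 0.52 on the log2 scale, and within each line the treated and untreated ranges did not overlap. No comparison passed the test. The log2 fold changes were -0.39 and -0.24 in control cells (NACET, H2O2) and -0.44 and -0.38 in the edited line, with adjusted p from 0.107 to 0.125, and all 4 were smaller than the fold limit of 0.6. The order of group means ran from NRF2 ΔC untreated (165 CPM) and control untreated (152 CPM), which overlapped, to control NACET (115 CPM).

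BEST1, the chloride channel of the basolateral membrane, rose with H2O2 in both lines. Control cells had 0.489, 0.386 and 0.501 CPM untreated (11, 8 and 11 reads) and 1.36, 1.66 and 1.47 CPM with H2O2 (23, 39 and 30 reads). NRF2 ΔC cells had 0.341, 0.194 and 0.184 CPM untreated (7, 5 and 4 reads) and 3.44, 2.98 and 3.54 CPM with H2O2 (67, 58 and 83 reads). The 6 H2O2 libraries were the 6 highest, and the NRF2 ΔC ones lay above all control ones. BEST1 passed the filter on low counts in these comparisons only through the H2O2 group, so the tests below describe a gene that entered them by being high. By edgeR's test the log2 fold change with H2O2 was 1.70 in control cells (SE 0.263, adjusted p = 0.00751) and 3.76 in NRF2 ΔC cells (SE 0.323, adjusted p = 0.00118). Without that filter the values were 1.70 (adjusted p = 0.00589) and 3.77 (adjusted p = 7.18e-05). With NACET, BEST1 was at 0.298, 0.794 and 0.494 CPM in control cells and 0.293, 0.44 and 0.457 CPM in NRF2 ΔC cells, overlapping the untreated ranges. The control difference was 0.20 (SE 0.4, adjusted p = 0.84), and the NRF2 ΔC comparison was not tested because BEST1 did not pass the filter on low counts.

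Exons of BEST1 overlap FTH1, the ferritin heavy chain gene on the opposite strand, by 1267 exonic bases (GRCh37, within chr11:61727364-61732987), and reads were counted without regard to strand, so reads of the shared stretch cannot be assigned by strand. FTH1 had 11665 to 55462 reads per library. With H2O2 the log2 fold change of FTH1 was 0.46 in control cells (adjusted p = 0.043) and 0.33 in NRF2 ΔC cells (adjusted p = 0.184). In H2O2-treated cells FTH1 was lower in NRF2 ΔC than in control cells (log2 fold change -1.05, adjusted p = 0.00315), the opposite direction to BEST1. How many BEST1 reads came from FTH1 transcripts was not tested.

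**Figure D2:**
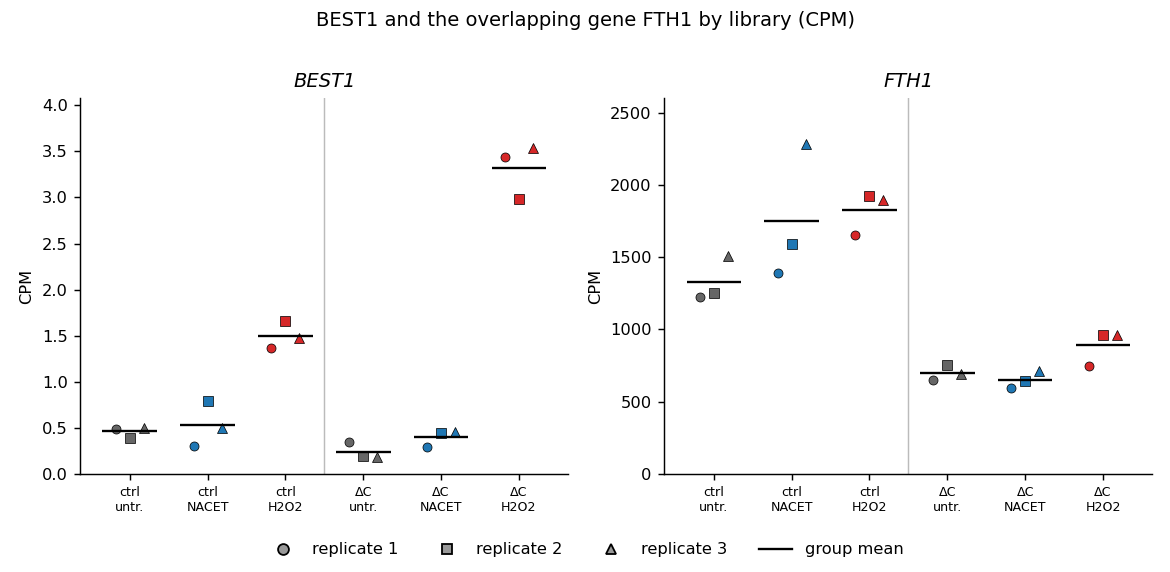
CPM of BEST1 (left) and FTH1 (right) in the 18 libraries, linear axes from 0, symbols for replicates and bars for group means. BEST1 is highest in the NRF2 ΔC cells treated with H2O2 (2.98 to 3.54 CPM), whereas FTH1 is lower in all NRF2 ΔC libraries (595 to 963 CPM) than in all control libraries (1225 to 2283 CPM).

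MERTK, the receptor for outer segment uptake, was expressed at 2.6 to 6.37 CPM with no called difference. Control cells had 5.02, 3.81 and 4.79 CPM untreated, 4.18, 4.6 and 4.08 CPM with NACET and 4.48, 5.59 and 6.37 CPM with H2O2. NRF2 ΔC cells had 4.29, 2.6 and 3.83 CPM untreated, 4.26, 3.13 and 4.38 CPM with NACET and 3.96, 4 and 5.34 CPM with H2O2. All neighbouring groups overlapped. The log2 fold changes with H2O2 were 0.28 (SE 0.19) in control and 0.30 (SE 0.255) in NRF2 ΔC cells, and those with NACET were -0.07 and 0.13.

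SERPINF1 was close to 1 CPM everywhere, from 0.718 to 1.78 CPM. Control cells had 0.8, 0.868 and 0.775 CPM untreated, 1.09, 1.11 and 1.07 CPM with NACET and 0.943, 0.853 and 1.37 CPM with H2O2. NRF2 ΔC cells had 1.32, 0.97 and 1.15 CPM untreated, 1.34, 0.935 and 1.78 CPM with NACET and 1.23, 0.718 and 1.49 CPM with H2O2. The control NACET libraries lay above all control untreated ones, but on 17 to 26 reads each, and the difference of 0.43 (SE 0.229) was not called (adjusted p = 0.337). The other groups overlapped their untreated group.

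TIMP3 was lower in every treated library than in the untreated library of the same number, as MITF, OTX2 and KRT8 also were. In control cells it was at 646, 488 and 476 CPM untreated, 301, 237 and 222 CPM with NACET and 358, 297 and 265 CPM with H2O2. NRF2 ΔC cells had 390, 259 and 264 CPM untreated, 200, 138 and 125 CPM with NACET and 217, 189 and 165 CPM with H2O2. No treated range overlapped the untreated range of its line, and replicate 1 was again the highest library of each group. The differences between libraries of the same number were close together, from -1.10 to -1.04 with NACET and from -0.85 to -0.71 with H2O2 in control cells on the log2 scale. By edgeR's test in control cells TIMP3 fell with NACET (log2 fold change -1.07, SE 0.167, adjusted p = 0.0202) and with H2O2 (-0.81, SE 0.156, adjusted p = 0.0166). It also fell in NRF2 ΔC cells with H2O2 (-0.70, SE 0.189, adjusted p = 0.0461). In NRF2 ΔC cells with NACET the log2 fold change was -0.995 (SE 0.227) but was not called at an adjusted p of 0.0728. Fitted with same-numbered libraries as blocks it was called (-1.001, adjusted p = 1.88e-08).

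The 3 TIMP3 calls differed in how they held without single libraries. With NACET in control cells the call was lost without untreated replicate 1 (-0.92, adjusted p = 0.0691), without untreated replicate 2 (-1.13, adjusted p = 0.0605) and without NACET replicate 2 (-1.02, adjusted p = 0.128) in edgeR's test. With H2O2 in control cells it was lost without H2O2 replicate 2 (-0.78, adjusted p = 0.0899). With H2O2 in NRF2 ΔC cells it was lost in 5 of 6 such fits, with log2 fold changes from -0.81 to -0.46 over the 6, and kept only without H2O2 replicate 1. The direction was the same in all of these fits.

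KRT8 and KRT18 were lower with H2O2 in both lines, but by less than the fold limit. KRT8 was at 610, 609 and 625 CPM in untreated and 454, 427 and 431 CPM in H2O2-treated control cells, and at 651, 678 and 582 CPM in untreated and 462, 500 and 471 CPM in H2O2-treated NRF2 ΔC cells. KRT18 was at 443, 417 and 423 CPM against 304, 282 and 303 CPM in control cells, and at 419, 466 and 421 CPM against 260, 380 and 342 CPM in NRF2 ΔC cells. The treated and untreated ranges did not overlap in either line. In control cells the log2 fold changes of -0.49 for KRT8 (SE 0.0864, adjusted p = 0.0123) and -0.53 for KRT18 (SE 0.0869, adjusted p = 0.00937) passed the limit on the adjusted p of edgeR's test but not the fold limit. The NRF2 ΔC values were -0.44 (adjusted p = 0.06) and -0.43 (adjusted p = 0.118). With NACET, KRT8 ranged from 475 to 565 CPM in control and from 522 to 614 CPM in NRF2 ΔC cells, and KRT18 from 384 to 450 CPM and from 380 to 507 CPM. The NACET log2 fold changes were -0.23 and -0.17 for KRT8 and -0.06 and 0.04 for KRT18. Every NACET-treated KRT8 library was below its untreated partner, but in NRF2 ΔC cells the ranges overlapped.

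Values of the 2 keratins are uncertain in 2 ways. The annotation holds 51 named pseudogenes of KRT8 and 68 of KRT18, of which the count files list 1 each, and reads that mapped to several places, 8.24 to 10.4 % of a library, were not counted on genes. The 2 neighbouring genes share 525 exonic bases in the annotation used here, which is newer than the study.

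Counted over the members, the calls were few. BEST1 is left out of the treatment counts, because with H2O2 it was tested only through the group in which it was high, and 7 members remain. In control cells 1 of 7 was called with NACET (TIMP3), against 2.75 % of all 13696 genes tested. With H2O2 it was 1 of 7 (TIMP3 lower), against 6.33 % of 13691 genes. In NRF2 ΔC cells 0 of 7 were called with NACET, against 1.39 % of 13542 genes. There 3 members had an unadjusted p under 0.05 by edgeR, and DESeq2 called 2 (MITF and TIMP3). The same 2 were called with same-numbered libraries as blocks, among 8.82 % of all genes. With H2O2 2 of 7 were called in that line (MITF and TIMP3 lower), against 9.81 % of 13543 genes. With 7 members, each of which counts for more than 10 %, these shares only describe the members. The median log2 fold change of these 7 was -0.23, -0.36, -0.18 and -0.43 in the same order, against medians of -0.01, 0, -0.01 and -0.01 over all genes tested. The comparisons of NACET and of H2O2 share the untreated libraries of their line.

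**Figure D3:**
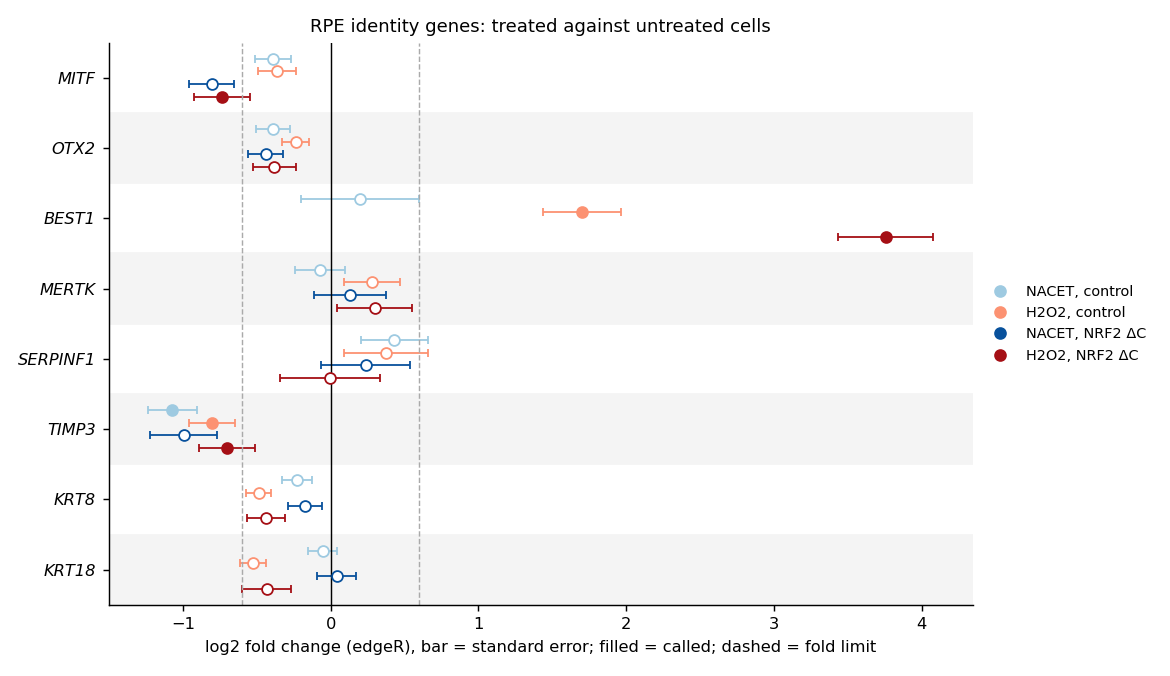
Log2 fold change (horizontal) with its standard error from edgeR for the 8 members that passed the filter, treated against untreated, in control and NRF2 ΔC cells. Filled points passed both limits, and dashed lines mark a log2 fold change of 0.6 in size. BEST1 has no point for NACET in NRF2 ΔC cells, where it was not tested. It lies far to the right with H2O2, while MITF, OTX2, TIMP3 and KRT8 lie left of 0 in all 4 comparisons.

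Samples of the same number deviated together within a line, so the treatments were also fitted with same-numbered libraries as blocks. This raised the share of all genes called in control cells to 7.49 % (NACET) and 10.2 % (H2O2), and in the edited line to 8.82 % and 18.7 %. Of the members' calls it changed only those of MITF and TIMP3 with NACET in NRF2 ΔC cells, given above.

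NRF2 ΔC and control cells were then compared under each condition, with BEST1, MITF and TIMP3 the only members called. TIMP3 was lower in NRF2 ΔC cells under all 3 conditions, with non-overlapping ranges, but was called only with H2O2 (log2 fold change -0.71, SE 0.151, adjusted p = 0.0259 by edgeR). Untreated it was at -0.82 (SE 0.198, adjusted p = 0.0645) and with NACET at -0.75 (SE 0.207, adjusted p = 0.0914). In untreated cells MITF was at 113 to 152 CPM in NRF2 ΔC and 145 to 187 CPM in control libraries, overlapping ranges (log2 fold change -0.32, adjusted p = 0.397 by edgeR). It was called with NACET (-0.74, SE 0.137, adjusted p = 0.0198) and came to -0.69 with H2O2 (SE 0.175, adjusted p = 0.0527). DESeq2 called the MITF difference with H2O2 (-0.69, adjusted p = 0.00889). BEST1 was higher in NRF2 ΔC cells with H2O2 (1.13, SE 0.224, adjusted p = 0.0191). Untreated, its 3 NRF2 ΔC libraries (4 to 7 reads) lay below the 3 control ones (8 to 11 reads), but it did not pass the filter and was not tested. The calls of MITF with NACET, and of BEST1 and TIMP3 with H2O2, were each lost in 4 of 6 fits without 1 library, with log2 fold changes from -0.82 to -0.62, from 1.05 to 1.20 and from -0.82 to -0.60. For MITF these were the fits without control NACET replicates 1 and 2 and NRF2 ΔC NACET replicates 2 and 3. For BEST1 they were those without each control H2O2 replicate and NRF2 ΔC H2O2 replicate 3, and for TIMP3 those without control H2O2 replicates 1 and 2 and NRF2 ΔC H2O2 replicates 2 and 3.

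The share of members called was 0 of 7 untreated, against 3.85 % of 13710 genes, with 1 member at an unadjusted p under 0.05 and 1 called by DESeq2 (TIMP3). It was 1 of 7 with NACET, against 4.76 % of 13627 genes, and 2 of 8 with H2O2, against 5.62 % of 13580 genes. OTX2, KRT8 and KRT18 differed little between the lines, with log2 fold changes from -0.02 to 0.13 over the 3 conditions. MERTK ranged from -0.35 to -0.15 and SERPINF1 from 0.12 to 0.49 without passing.

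**Figure D4:**
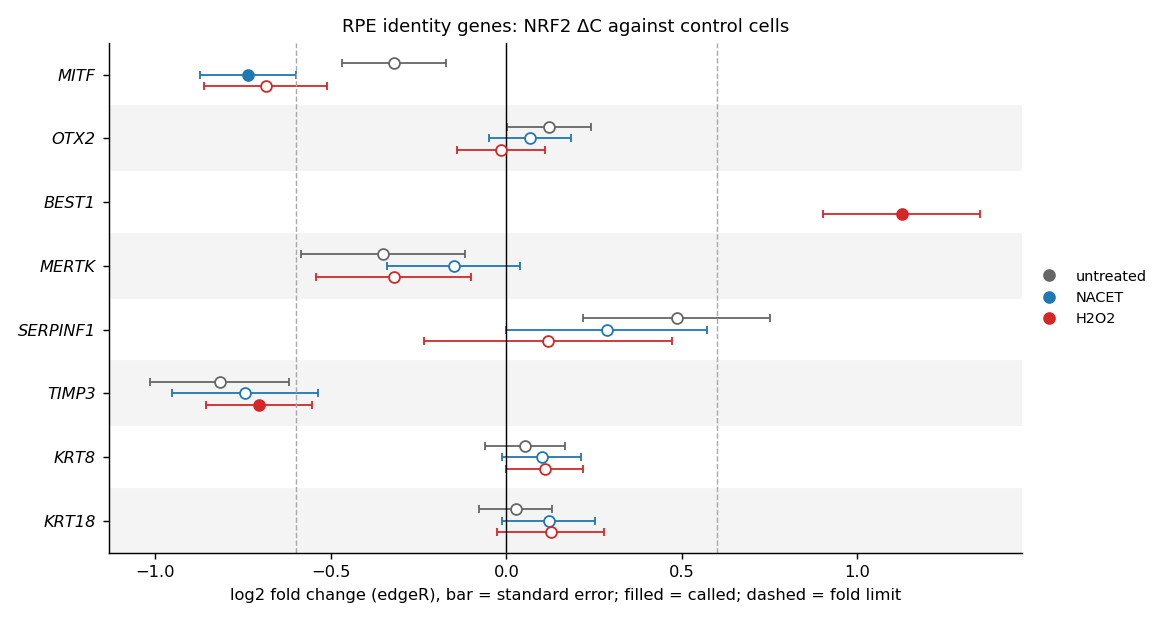
Log2 fold change (horizontal) with its standard error from edgeR for NRF2 ΔC against control cells, under 3 conditions. Filled points passed both limits, dashed lines mark 0.6 in size, and BEST1 was tested only in H2O2-treated cells; TIMP3 and MITF lie left of 0 under all 3 conditions.

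Whether a response differed between the lines was tested as an interaction over 12 libraries, with the control response minus the NRF2 ΔC response as its sign. No member was called for NACET, against 0.0643 % of 14002 genes, with 0 members at an unadjusted p under 0.05 and 0 called by DESeq2. None was called for H2O2, against 0.0214 % of 13987 genes, with 1 member at an unadjusted p under 0.05 and 0 called by DESeq2. That member was BEST1, with log2 fold changes of 1.70 and 3.76 in the 2 lines and an interaction that did not pass (-2.08, SE 0.394, adjusted p = 0.122 by edgeR). BEST1 passed the filter on low counts there only through the H2O2 groups, so its interaction describes a gene that entered by being high. Without that filter the interaction was -2.08 (adjusted p = 0.112 by edgeR). With the replicate number within each line as a block, an alternative chosen after seeing the data, the interaction was called for BEST1 (-2.07, adjusted p = 0.0125) and MITF (0.37, adjusted p = 0.0423) with H2O2, among 6.91 % of genes called, and for MITF with NACET (0.42, adjusted p = 0.0118), among 0.9 % of genes called. For TIMP3 the interactions were -0.08 (SE 0.306) with NACET and -0.12 (SE 0.256) with H2O2.

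The levels of the members over the 18 libraries were compared with one another and with 12848 genes of at least 1 CPM, as Pearson's r of log2(CPM + 1). The libraries share treatments, lines and replicate numbers, so r is a description only. MITF and TIMP3 had r = 0.93 and KRT8 and KRT18 r = 0.86, the closest pairs among the members tested, whereas MITF and OTX2 had r = 0.32. The genes most like MITF were ERBB4 (r = 0.973), CRB2 and FILIP1L, and those most like TIMP3 were TSPYL4 (r = 0.964), NISCH and CYTH3. BEST1 was most like ATF3 (r = 0.958), a stress-induced transcription factor, KRT34 and MAP1LC3B2, but it reached 1 CPM only in the H2O2 groups and had 4 to 15 reads in the other libraries, so this likeness mainly follows those 2 groups. OTX2 was most like TMEM80 (r = 0.903), NMT2 and BMP4, and KRT8 most like RAB11FIP5 (r = 0.921), GIPC1 and HECTD3. MERTK (NIPAL3, r = 0.794, then HOMEZ and SLC25A16) and SERPINF1 (ZSCAN22, r = 0.71, then KIAA1279 and NDEL1) had weaker likeness, at few reads. KRT18 was most like MIR622 (r = 0.957), PPP1R13L and MYADM.

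Of a list of 11 other RPE transcription factors, 8 were tested with H2O2 in NRF2 ΔC cells. Of these 4 fell, 0 rose and 4 did not pass, against 9.81 % of all genes called. The list was chosen with earlier results of these data known, so this share only describes it. SOX9 had a log2 fold change of -0.79 (SE 0.14, adjusted p = 0.0118 by edgeR). LHX2, an eye field factor, had -0.75 (adjusted p = 0.0182) and PAX6, a master factor of the eye, -0.63 (adjusted p = 0.0189). SIX3, another eye field factor of the list and the smallest of the 4 changes, had -0.61 (adjusted p = 0.0289). Leaving out 1 library gave 0 to 3 calls on the list, and all 4 were lost without untreated replicate 2 and without H2O2 replicate 2. In control cells with H2O2 the same 4 had -0.50, -0.40, -0.47 and -0.43, with adjusted p under the limit but folds under 0.6, and 0 of 8 were called. With NACET 0 of 9 were called in control cells and 0 of 8 in NRF2 ΔC cells. The median of the list was 0.06 and 0.05 with NACET and -0.42 and -0.46 with H2O2, against medians of all genes from -0.01 to 0.

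**Figure D5:**
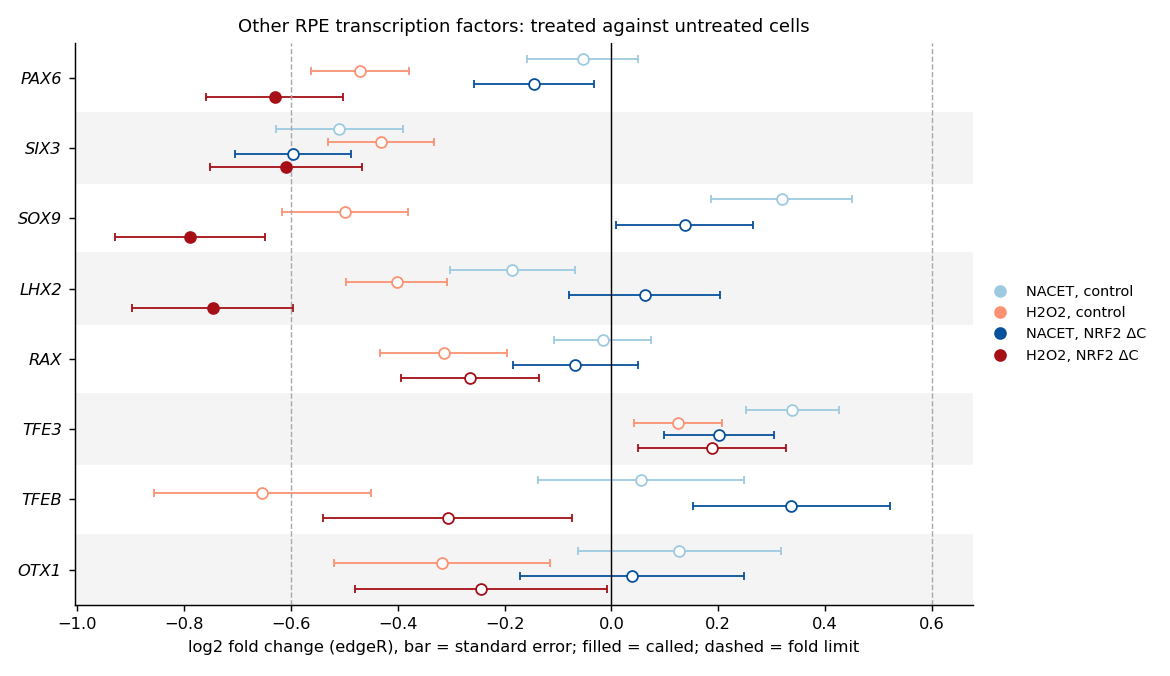
Log2 fold change (horizontal) with its standard error from edgeR of 8 other RPE transcription factors, treated against untreated cells, filled where called. PAX6, SIX3, SOX9 and LHX2 lie left of 0 with H2O2 in both lines and pass both limits in NRF2 ΔC cells only; the 4 other factors pass in none of the 4 comparisons drawn.

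Genes of the other RPE functions were called in small numbers, beside shares of all genes of 2.75 % with NACET and 6.33 % with H2O2 for the control line and of 1.39 % and 9.81 % for the edited line. Of the visual cycle genes 6 were tested, and 1 fell in 3 of the 4 treatment comparisons. RDH5, the 11-cis retinol dehydrogenase, fell with H2O2 in control cells (-0.76, adjusted p = 0.0244), RDH10, an all-trans retinol dehydrogenase, with NACET in NRF2 ΔC cells (-1.09, adjusted p = 0.0217), and LRAT, which esterifies retinol, with H2O2 in NRF2 ΔC cells (-0.79, adjusted p = 0.0495), all by edgeR's test. Of the outer segment phagocytosis genes, MYO7A, a motor protein of melanosome and phagosome transport, fell with both treatments in control cells (-0.87 with NACET, -1.14 with H2O2) and with H2O2 in the edited line (-1.52), 1 of 10 or 11 tested each time. Of 8 transport genes tested, SLC16A3, a lactate carrier, and SLC2A1, the glucose carrier GLUT1, fell with H2O2 in both lines (control -0.995 and -0.94, NRF2 ΔC -1.12 and -0.95). ATP1B1, a sodium pump subunit, fell in NRF2 ΔC cells with NACET (-0.72) and H2O2 (-1.02). Of 9 melanin genes tested with NACET in control cells, SLC45A2, a melanosomal transporter, fell (-0.61) and MREG, which acts in melanosome transfer, rose (0.82), and none of 9 or 10 was called in the other 3 comparisons. When 1 library was left out, SLC16A3 in both lines and MYO7A with H2O2 in control cells were called in all 6 fits, whereas SLC45A2 and MREG were called in none. RDH10 and ATP1B1 with NACET in NRF2 ΔC cells were lost without replicate 2 or replicate 3 of either group, and without either replicate 2 no gene at all was called there. MYO7A with NACET in control cells was kept only without untreated replicate 3. The other H2O2 calls of these functions were lost in 1 to 5 of 6 fits, each of them without H2O2 replicate 2 of its line.

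Partners of TIMP3 and SERPINF1 and other epithelial genes were counted in the same way. Of the 14 secreted factors and partners 11 or 12 were tested, and 0 were called in any treatment comparison. Of 7 keratin and junction genes tested, CLDN1, a tight junction protein, rose with H2O2 in NRF2 ΔC cells (1.45, adjusted p = 0.0172), and of 9 mesenchymal genes there FN1, fibronectin, fell (-0.96) and ACTA2, smooth muscle actin, rose (1.05), against 9.81 % of all genes called. ACTA2 was called in all 6 fits without 1 library, CLDN1 was lost without untreated replicates 2 and 3 and H2O2 replicate 2, and FN1 was kept only without H2O2 replicate 1. With same-numbered libraries as blocks, among the 7.49 to 18.7 % of genes called as above, calls were added for SLC24A5, RDH10, RDH5, PNPLA2 and SNAI1 with NACET and TFEB, TYRP1 and FN1 with H2O2 in control cells. In NRF2 ΔC cells they were added for MREG, SLC45A2, SLC2A1, MYO7A and SNAI1 with NACET and RAB27A, TYRP1, RDH5, CLCN2, ITGAV and PLXDC2 with H2O2, and no call of these lists was lost.

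Between the lines, GAS6, a ligand of MERTK, was higher in NRF2 ΔC cells under all 3 conditions (0.80, 0.85 and 0.87 untreated, with NACET and with H2O2, adjusted p from 0.00803 to 0.00899 by edgeR). TAGLN, a smooth muscle and fibroblast gene, was lower under all 3 (-3.02, -2.98 and -2.84). GAS6 was the only gene called of 10, 10 and 11 phagocytosis genes tested, and TAGLN of 9, 10 and 9 mesenchymal genes. The shares of all genes called were 3.85, 4.76 and 5.62 % in the same order. With H2O2, 5 of 12 secreted factors and partners were called, against 5.62 % of all genes, and 1 to 7 when 1 library was left out. The 5 and the 12 include TIMP4, which passed the filter on low counts only through the control group, as also with NACET. Of the metalloproteinase inhibitors, TIMP1 was higher (0.85, adjusted p = 0.0135) and TIMP2 lower (-0.63, adjusted p = 0.0358), and TIMP4, also called with NACET, had 11 to 33 reads in control and 0 or 1 in NRF2 ΔC libraries of these 2 conditions. PLXDC2, a receptor for PEDF, was lower (-0.88), and CST3, cystatin C, was higher (0.70); CST3 and TIMP2, the smallest of the 5 changes, were named after their values were seen. BSG, the chaperone of lactate carriers (0.62), and the keratin gene KRT7 (0.79) were also higher with H2O2. They were 1 of 8 transport genes and 1 of 7 keratin and junction genes tested. Without 1 library GAS6 was lost in the H2O2 comparison alone (control replicates 1 and 2), TIMP4 in none, and TAGLN untreated (NRF2 ΔC replicate 2) and with NACET (replicate 2 of either line). TIMP1, PLXDC2, CST3 and BSG were lost without control H2O2 replicates 1 and 2 and NRF2 ΔC H2O2 replicates 2 and 3, and TIMP2 and KRT7 also without control H2O2 replicate 3. No transcription factor, melanin or visual cycle gene of the lists was called between the lines, nor any list gene in the 2 interactions.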

How the data were processed

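Poly(A) RNA was sequenced from 18 samples of ARPE-19 cells. The authors prepared TruSeq libraries, sequenced single-end reads, aligned them to hg19 with TopHat 2.1.0 and counted reads per gene symbol with HTSeq-count 0.11.2 without regard to strand, and genes of ribosomal RNA were removed. The deposited values are whole-number counts, not normalized. The gene annotation is not given in the sources used here. Of the 23411 symbols, 4060 had no count in any library. The 5 summary lines, which name no gene, entered neither the library totals nor any test (no gene for 15 to 17.5 % of a library's reads, ambiguous reads 0.955 to 1.18 %, reads mapped to several places 8.24 to 10.4 %).

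Group differences come from the quasi-likelihood test of edgeR (version 4.0.16, under R 4.3.3) after filterByExpr and TMM scaling. Each pair of groups had a separate fit of its 6 samples, with p-values adjusted by Benjamini-Hochberg over all genes tested. Each of the 2 interactions used 12 samples and only the limit on the adjusted p. Standard errors were derived from the log2 fold change and its F value. CPM use TMM factors over all 18 libraries, and RPKM the canonical transcript length in GENCODE v44lift37. The alternatives were DESeq2 1.42.0, RLE scaling, no filter, a fit of all 18 samples, no fold limit, the replicate number as a block, and leaving out each sample. The fits were tested on simulated data, but no result of that is given here. Depth limits the precision of the genes under about 100 reads per library, and the spread between 3 replicates that of the others.

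Within a cell line all 12 pairs of same-numbered samples deviated together from their group means (r from 0.442 to 0.846 over 12848 genes), so the numbers, which come from the labels, were taken to pair these samples.

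The members and lists were chosen with earlier results of these data known. The genes named are all members, in each comparison the called genes of each list (at most the 3 largest), genes whose exons overlap a member, the 3 genes most like each member over the samples, and NFE2L2. Beside this rule, marker genes of the cell types, list genes called only with blocks, and the smaller changes of a list with more than 3 calls (SIX3, CST3, TIMP2) are named.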

Additional observations from a re-analysis of the deposited data

How the results depend on the processing

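Counts of members called are given here as they changed with the processing. With NACET in NRF2 ΔC cells the count of 0 became 2 with DESeq2, with one fit of all 18 samples and with the replicate block (MITF and TIMP3 each time), and 1 without the filter on low counts (MITF). With H2O2 in control cells 2 (BEST1 included) became 4 without the fold limit (KRT8 and KRT18 added), by construction. Between untreated lines 0 became 1 (TIMP3) with DESeq2, without the filter, with all 18 samples and with the block. Between NACET-treated lines 1 became 2 (TIMP3 added) with DESeq2, all 18 samples and the block. Between H2O2-treated lines MITF was added with DESeq2 (-0.69), without the filter (-0.70), with all 18 samples (-0.67) and with the block (-0.70). The interaction with H2O2 went from 0 to 1 (BEST1, -2.06) with 1 block over both lines and to 2 with a block within each line, and that with NACET from 0 to 1 with a block within each line, the last chosen after seeing the data. BEST1 entered the H2O2 interaction only through its H2O2 groups. Leaving out 1 sample gave 0 to 1 members for NACET and 1 to 2 for H2O2 in control cells, 0 to 2 and 1 to 3 in NRF2 ΔC cells, 0 to 1, 0 to 2 and 0 to 3 between the lines (untreated, NACET, H2O2), and 0 for both interactions. Fewer samples per fit is part of that alternative's construction, and for the other changes the cause was not tested. RLE scaling changed no count of members.

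Between the lines same-numbered samples had correlations from -0.259 to 0.739, so their numbers were not taken as pairs. The replicate block there raised the count of all genes called from 528 to 843 untreated, 648 to 1018 with NACET and 763 to 1524 with H2O2. Among the members it added MITF with H2O2 (-0.70) and TIMP3 untreated and with NACET. Other alternatives given above also added these calls. Within a line the block changed no member's call other than those given in the report. Over all genes, DESeq2 against edgeR called 577 against 376 with NACET in control and 570 against 188 in NRF2 ΔC cells, and 27 against 9 and 75 against 3 in the interactions with NACET and H2O2. One fit of all 18 samples called 641 with NACET in NRF2 ΔC cells and 19 in the H2O2 interaction, no filter 13 in the latter, RLE 3 in the NACET interaction, and no fold limit 1809 against 867 with H2O2 in control cells. Leaving out 1 sample moved the count of all genes called to between 31 (without NACET replicate 2) and 337 with NACET and between 290 (without H2O2 replicate 2) and 1047 with H2O2 in control cells, and in NRF2 ΔC cells from 188 to between 0 (without replicate 2 of either group) and 462 (without NACET replicate 1) and from 1329 to between 275 (without H2O2 replicate 2) and 2582 (without H2O2 replicate 1). Between the lines it gave 261 to 901 untreated, 320 to 917 with NACET and 400 to 2416 with H2O2, each lowest without NRF2 ΔC replicate 2 and highest without NRF2 ΔC replicate 1, and 2 to 8 and 0 to 11 in the interactions. The shares of all genes given beside the members move with these counts.

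Of 924 recomputed fold changes 835 kept direction and call, 29 gained and 26 lost the call, and 34 changed sign, all of them small and uncalled. SERPINF1 with H2O2 in NRF2 ΔC cells (main value about 0) came to 0.011 without the filter and 0.019 with all 18 samples, and OTX2 between H2O2-treated lines to 0.001 with all 18 samples. When 1 sample was left out, sign changes arose for MERTK (-0.18 to 0.004) and BEST1 (-0.18 to 0.47) with NACET in control cells. In NRF2 ΔC cells they arose for MERTK (-0.056 to 0.30), SERPINF1 (-0.008 to 0.44) and KRT18 (-0.035 to 0.16) with NACET and SERPINF1 (-0.25 to 0.25) with H2O2. Between the lines they arose for KRT18 untreated (-0.022 to 0.069), MERTK with NACET (-0.22 to 0.00), and OTX2 (-0.092 to 0.066) and SERPINF1 (-0.14 to 0.36) with H2O2. In the NACET interaction they arose for OTX2 (-0.066 to 0.14), SERPINF1 (-0.003 to 0.44), TIMP3 (-0.31 to 0.15) and KRT8 (-0.12 to 0.009), and in the H2O2 interaction for MERTK (-0.20 to 0.14), TIMP3 (-0.35 to 0.028) and KRT18 (-0.26 to 0.011). Depth limits RPE65, RLBP1, BEST1 and SERPINF1, which had at most 1, 8, 83 and 39 reads per library.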

Other observations

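OTX2OS1, a non-coding gene antisense to OTX2 that shares no exon with it and was named after its values were seen, was lower in every treated library than in its untreated partner. It had 37, 42 and 41 reads in untreated, 16, 15 and 26 in NACET-treated and 21, 14 and 21 in H2O2-treated control cells, and 44, 35 and 38, 15, 13 and 10, and 15, 8 and 13 reads in NRF2 ΔC cells. Its log2 fold changes were -1.03 (adjusted p = 0.0584) and -0.97 (adjusted p = 0.0638) with NACET and H2O2 in control cells. In NRF2 ΔC cells they were -1.56 (adjusted p = 0.0522) and -1.61 (adjusted p = 0.0209, called) by edgeR's test. OTX2 itself had -0.39, -0.24, -0.44 and -0.38 in the same order. Exons of the 2 genes do not overlap in the annotation used here, but the annotation used for counting is not given.

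MIR622, the gene whose level was most like that of KRT18 (r = 0.957), lies on chromosome 13 (90883436 to 90883531, plus strand, GRCh37) inside KRT18P27, a processed pseudogene of KRT18 (90882638 to 90883936). Of its 96 bases 91 match the KRT18 transcript at the best ungapped position. It had 139 to 362 reads per library, against 5057 to 12028 for KRT18, and the source of these reads was not tested.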
